A study of Homo sapiens with 60 samples.

Results

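The comparison described here set A549 cells treated for 24 h with an ethanol extract of Polygalae Radix at 76 µg/mL, the medium dose of the study, against the same cells and extract at 15.2 µg/mL, the low dose. A549 is an established human lung carcinoma line with epithelial features. Each dose had 1 library, so the comparison rests on 2 of the 60 libraries of the series, chosen by their labels alone. Of 60675 gene identifiers in the table, 9638 reached 10 CPM (counts per 1e6 counts, after scaling) in at least 1 of both libraries and were compared. There was no replicate and no test: each ratio is a difference between these 2 libraries, and no p-value can be given.

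The series treated A549 cells with 8 herbal extracts at 3 doses each, and with vehicle. Polygalae Radix and Aucklandiae Radix, both ethanol extracts, had 1 library per dose and share the set number 11 in the labels. The design text says that extracts with an IC20 (the dose that lowers viability by the stated percentage) under the usual top dose were used at their IC20 and at dilutions of 5 and 25 times, which here gave 380, 76 and 15.2 µg/mL. Vehicle had 3 libraries, all in a set of their own named C1, and was labelled 0.1% DMSO, whereas the design text gives 2%. No DMSO share was recorded for the extract libraries, so a difference from vehicle cannot be told apart from a difference between sets.

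Polygalae Radix is the dried root of Polygala tenuifolia, a herb used in East Asian medicine and rich in triterpenoid saponins and in esters of sugars with cinnamic acids. Saponins are amphipathic and many of them disturb cell membranes. A cell under stress can change its mRNA content along several known routes, among them the integrated stress response, in which the transcription factor ATF4 raises genes of amino acid synthesis and tRNA charging, the heat shock response, which raises chaperones, and immediate early genes, which are switched on within minutes of a stimulus. Whether members of these routes stood higher or lower at the medium dose is given below, gene group by gene group.

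The difference between the doses was mild and ran mainly in 1 direction. At 76 µg/mL, 141 genes (1.46% of those measured) were lower by 1.5-fold or more than at 15.2 µg/mL, and 11 (0.114%) were higher. Past 2-fold, 4 genes (0.0415%) were lower, among them MYH9, FLNA and SPTAN1, and 1 (0.0104%) was higher, EIF3CL, whose reads are shared with a near-identical copy. Among the gene lists examined, the lower genes included 6 of 18 tRNA synthetases, 5 of 11 genes of serine, folate and asparagine synthesis, 5 of 16 of glycolysis, 5 of 13 keratin and junction genes and 4 of 20 chaperones, so that most of the 141 lay outside these lists. The higher genes included the nuclear receptors NR4A2 and NR4A3, although NR4A2 reached 10 CPM only in the medium library. Over all measured genes the median log2 ratio was 0.0007, with quartiles of -0.12 and 0.11. Ratios throughout are log2 of CPM plus 1 at the medium dose minus the same at the low dose, with CPM scaled by TMM factors. When libraries were scaled by total counts instead, the median of all genes moved to 0.09 and the counts past 1.5-fold became 65 lower and 30 higher, so the size of the imbalance depends on the scaling, and the lower genes were the larger group under either.

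**Figure D1:**
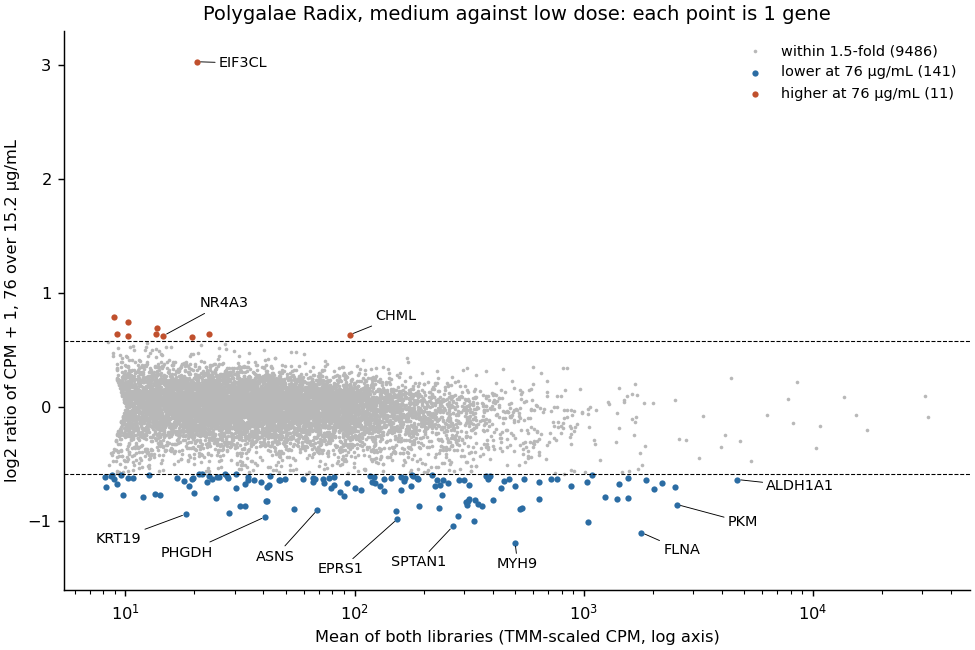
Each point is 1 of the 9638 measured genes, with the mean of both libraries in TMM-scaled CPM on a log axis and the log2 ratio of CPM plus 1, medium over low dose, on the vertical axis. Dashed lines mark 1.5-fold; 141 genes lie below the lower line, spread over most of the range of expression, and 11 above the upper line, 10 of them near the low end of the CPM axis.

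Both libraries were of ordinary depth for the series. The medium library held 23.104 M counts and the low library 22.696 M (M, counts in units of 1e6), within the 18.003 to 33.832 M of all libraries. The TMM factor was 1.0569 for the medium and 0.9906 for the low library. Only the high dose of the extract had a larger factor than the medium library, 1.2751. Mitochondrially encoded genes took 16.623% of counts at the medium and 16.171% at the low dose, against 11.462 to 11.759% in vehicle and 8.163 to 18.826% over the series. The slope of the medium to low ratio on transcript length was 0.0066 log2 units per doubling. By contrast, 2 libraries of other extracts (the medium dose of Soshiho-tang, replicate 3, and the low dose of Longan Arillus, replicate 3) stood apart with slopes of -0.41 and -0.49 against the median library, so that values resting on them are given with and without them.

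Since the extract had no replicate, the only yardstick for noise is the largest difference between any 2 libraries of 1 group, taken for each gene over the 54 libraries of the 19 replicated groups. Of the 141 lower genes, 51 (0.529% of measured genes) differed by more than that largest replicate difference, and of the 11 higher genes 4 (0.0415%) did. Without the 2 libraries that stood apart, the counts were 124 lower (1.29%) and 7 higher (0.0726%). Among all 9638 measured genes, at any fold and in either direction, 307 exceeded the largest replicate difference. Without those 2 libraries 1896 did, so passing this yardstick alone was common. The labels do not say whether replicates were separate cultures, so this spread may be technical.

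The genes with the lowest ratios were of several kinds. Those past 2-fold that are named here, MYH9, FLNA and SPTAN1, work in the cytoskeleton. MYH9, the heavy chain of non-muscle myosin IIA (ENSG00000100345, GRCh38 chr22:36281277-36388067, minus strand, 41 exons), had 798, 808 and 841 CPM in the vehicle libraries, 697 at the low, 306 at the medium and 123 at the high dose. The medium library was 2.28-fold below the low library, a log2 ratio of -1.19 with a 95% counting interval of -1.23 to -1.15 (exact binomial, without the added 1 CPM). Intervals of this kind cover counting error only. FLNA, filamin A, which crosslinks actin filaments (chrX:154348524-154374638, minus strand), had 2714, 2752 and 2820 CPM in vehicle, 2434 at the low, 1137 at the medium and 521 at the high dose. In both genes the low library lay below every vehicle library by far less than the medium library did. The log2 ratios of both, -1.19 and -1.10, exceeded the largest replicate difference only without the 2 libraries that stood apart (0.21 and 0.18, against 1.85 and 1.68 with them).

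Other genes of this kind were also lower at the medium than at the low dose. SPTAN1, the alpha chain of non-erythroid spectrin under the plasma membrane, had 362 CPM at the low and 175 at the medium dose, with 374 to 381 in vehicle. TLN1, talin, which ties integrins to actin, had 375 and 193 CPM. ITGB4, the integrin beta chain of hemidesmosomes, had 37.4 and 19.2 CPM, with 32.6 to 36.1 in vehicle, so that its low library stood above vehicle. AHNAK, a giant scaffold protein at the membrane, had 682 and 367 CPM, but its low library was already below the 990 to 1046 of vehicle, and replicates elsewhere differed by up to 1.00 on the log2 scale without the 2 libraries that stood apart, more than its log2 ratio of -0.89. Of the other genes in this machinery, named here after their values were seen, MSN (moesin, a membrane to actin linker) had a log2 ratio of -0.88, IQGAP1 (an actin scaffold) of -0.86, CTNNA1 (alpha-catenin of adherens junctions) of -0.77, MYH10 (the heavy chain of non-muscle myosin IIB) of -0.66 and ACTN1 (alpha-actinin) of -0.60.

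The list that covers actin itself differed less. Of 12 measured genes in the list of actin cytoskeleton and SRF targets (SRF is the transcription factor that drives many of them), 1 was lower past 1.5-fold, FLNA, and 0 were higher, with a median log2 ratio of -0.27 beside 0.0007 for all genes. ACTB, beta-actin, had 5323 CPM at the low and 4334 at the medium dose, a log2 ratio of -0.30. VCL, vinculin of focal adhesions, stood at -0.48, TPM1, a tropomyosin, at -0.36 and TAGLN, transgelin, at -0.50, while SRF itself stood at 0.25. Between the medium and low doses of Aucklandiae Radix, TAGLN stood at -0.52 and ACTB at -0.21. There VCL stood at 0.02, TPM1 at -0.06 and FLNA at 0.01, and the list median was -0.07. The lower TAGLN was thus not particular to Polygalae Radix. Among 11 tubulins, the subunits of microtubules, 2 were lower past 1.5-fold with Polygalae Radix (0 with total counts as the scale). All 11 lay below 0, with a median of -0.43. TUBA4A had 296 and 190 CPM, TUBB2A 25.4 and 16.6 CPM, and TUBB 1762 and 1189 CPM. TUBA1B, which overlaps an antisense locus whose reads may not be separated from its own, gave 3255 and 2583 CPM when both loci were added.

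Genes that supply amino acids and load them onto tRNA were lower as a group. The list of serine, folate and asparagine synthesis had 11 measured genes of 11, of which 5 were lower past 1.5-fold and 0 higher, and all 11 lay below 0 with a median of -0.51. In the list of cytosolic tRNA synthetases, 6 of 18 were lower past 1.5-fold and 0 higher, and all 18 lay below 0 with a median of -0.50. With total counts as the scale, 3 genes of each list were lower past 1.5-fold, and 10 of 11 and 17 of 18 lay below 0. At the high dose the medians against the low dose were -1.39 and -1.71. The corresponding medians for Aucklandiae Radix, 74 against 14.8 µg/mL, were 0.10 and 0.03. For scale, the SD of the difference in these medians between 2 libraries of a replicated group, without the 2 libraries that stood apart, was 0.09 and 0.04.

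PHGDH, which carries out the opening step of serine synthesis from a glycolytic intermediate, had 58.7, 61.7 and 61.0 CPM in vehicle, 54.1 at the low, 27.3 at the medium and 4.53 at the high dose, a log2 ratio of -0.96. PSAT1, the next enzyme of that path, had 217 CPM at the low and 142 at the medium dose. SHMT2, which passes a carbon from serine to folate in mitochondria, had 132.5 and 80.0 CPM, and ALDH1L2, a mitochondrial folate enzyme, 24.0 and 15.2 CPM. ASNS, asparagine synthetase, had 95.4, 96.0 and 95.5 CPM in vehicle, 89.9 at the low, 47.7 at the medium and 11.7 at the high dose, a log2 ratio of -0.90. For PHGDH and ASNS the low library was slightly under all vehicle libraries and the medium library was far under them, and both ratios exceeded the largest replicate difference in the series (0.59 and 0.28). MTHFD2, another mitochondrial folate enzyme, was the member that differed least, with 164 and 157 CPM.

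EPRS1, which charges tRNA with glutamate and proline, had the lowest ratio of the synthetases: 221 to 238 CPM in vehicle, 204 at the low, 103 at the medium and 26.8 at the high dose, a log2 ratio of -0.98. Other synthetases past 1.5-fold were VARS1 (valine) at -0.77, AARS1 (alanine) at -0.69, CARS1 (cysteine) at -0.63, QARS1 (glutamine) at -0.62 and MARS1 (methionine) at -0.62. EPRS1, CARS1 and QARS1 exceeded the largest replicate difference over all libraries, whereas VARS1 at 1.01 and AARS1 at 0.76 did so only without the 2 libraries that stood apart.

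Many genes of these 2 lists are known targets of ATF4, which binds a composite C/EBP-ATF element with the letters TGATGNAA. The element was searched for on both strands in RefSeq promoter windows (assembly GRCh38.p14, 250 bases before to 50 after a gene start), a search chosen after the values were seen. It was found in 1270 of 35116 windows (3.62%), or for 199 of 7810 measured genes with a window (2.55%). Of the 14 synthetase genes with a window, 7 held it, and of the 6 serine, folate and asparagine genes with a window, 2 did. Among the 113 genes lower past 1.5-fold that had a window, 12 held it (10.6%). Over both lists, genes with the element had a median log2 ratio of -0.54 and those without it -0.51, and over all measured genes the medians were -0.02 and 0.0. EPRS1, the lowest synthetase, held none in its window, and NARS1, at -0.29, held one. A match is a run of letters and not a measured binding site. The 4 windows below belong to genes lower past 1.5-fold and show the element in capitals, written 5′ to 3′ on the gene's strand. It begins 68 bases before the start in ASNS (chr7:97872359-97872658, minus strand), 187 before in AARS1 (chr16:70289457-70289756, minus), 2 before in CARS1 (chr11:3057374-3057673, minus) and 4 before in MARS1 (chr12:57487818-57488117, plus). In AARS1, CARS1 and MARS1 the match is on the opposite strand and reads TTGCATCA.
ASNS: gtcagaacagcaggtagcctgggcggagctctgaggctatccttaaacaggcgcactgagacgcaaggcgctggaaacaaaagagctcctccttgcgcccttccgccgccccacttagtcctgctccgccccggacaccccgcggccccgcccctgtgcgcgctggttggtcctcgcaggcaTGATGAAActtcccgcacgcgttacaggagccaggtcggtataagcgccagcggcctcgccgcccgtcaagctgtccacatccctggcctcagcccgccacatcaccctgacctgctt
AARS1: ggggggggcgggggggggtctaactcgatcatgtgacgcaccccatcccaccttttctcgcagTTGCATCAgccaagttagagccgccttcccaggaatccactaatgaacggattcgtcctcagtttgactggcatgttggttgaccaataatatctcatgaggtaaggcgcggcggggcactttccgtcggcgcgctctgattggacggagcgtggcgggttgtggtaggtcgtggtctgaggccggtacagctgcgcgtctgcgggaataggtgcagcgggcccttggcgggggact
CARS1: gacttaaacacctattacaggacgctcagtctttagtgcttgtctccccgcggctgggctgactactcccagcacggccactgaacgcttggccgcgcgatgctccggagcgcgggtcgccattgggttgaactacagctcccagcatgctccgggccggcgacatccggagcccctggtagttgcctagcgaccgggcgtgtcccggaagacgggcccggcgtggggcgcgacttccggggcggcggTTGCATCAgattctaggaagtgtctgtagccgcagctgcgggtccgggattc
MARS1: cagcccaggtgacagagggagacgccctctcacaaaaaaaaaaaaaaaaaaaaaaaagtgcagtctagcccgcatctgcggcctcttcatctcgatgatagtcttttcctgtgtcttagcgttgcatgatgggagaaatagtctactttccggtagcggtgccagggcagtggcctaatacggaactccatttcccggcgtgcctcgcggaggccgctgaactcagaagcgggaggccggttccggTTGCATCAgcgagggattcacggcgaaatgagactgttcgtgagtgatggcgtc

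The wider ATF4 list did not move as these genes did. Of 16 measured genes in the list of the integrated stress response, 2 were lower past 1.5-fold (ASNS and CBS, which makes cystathionine from homocysteine) and 0 higher, with a median of -0.17 and 5 members above 0. ATF4 itself, named here after its values were seen, had 259 CPM at the low, 278 at the medium and 347 at the high dose, with 259 to 273 in vehicle. DDIT3, the stress factor CHOP, had 6.09, 5.73 and 12.7 CPM at the 3 doses, under 10 CPM in both libraries compared. CHAC1, a glutathione-degrading enzyme and likewise under 10 CPM in both, had 4.32, 1.84 and 0.761 CPM, with 5.95 to 7.07 in vehicle. Over these doses, therefore, the mRNA of ATF4 stood level or slightly higher while ASNS mRNA was lower at each step. Amino acid transporters gave 0 of 10 past 1.5-fold and a median of -0.16.

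**Figure D2:**
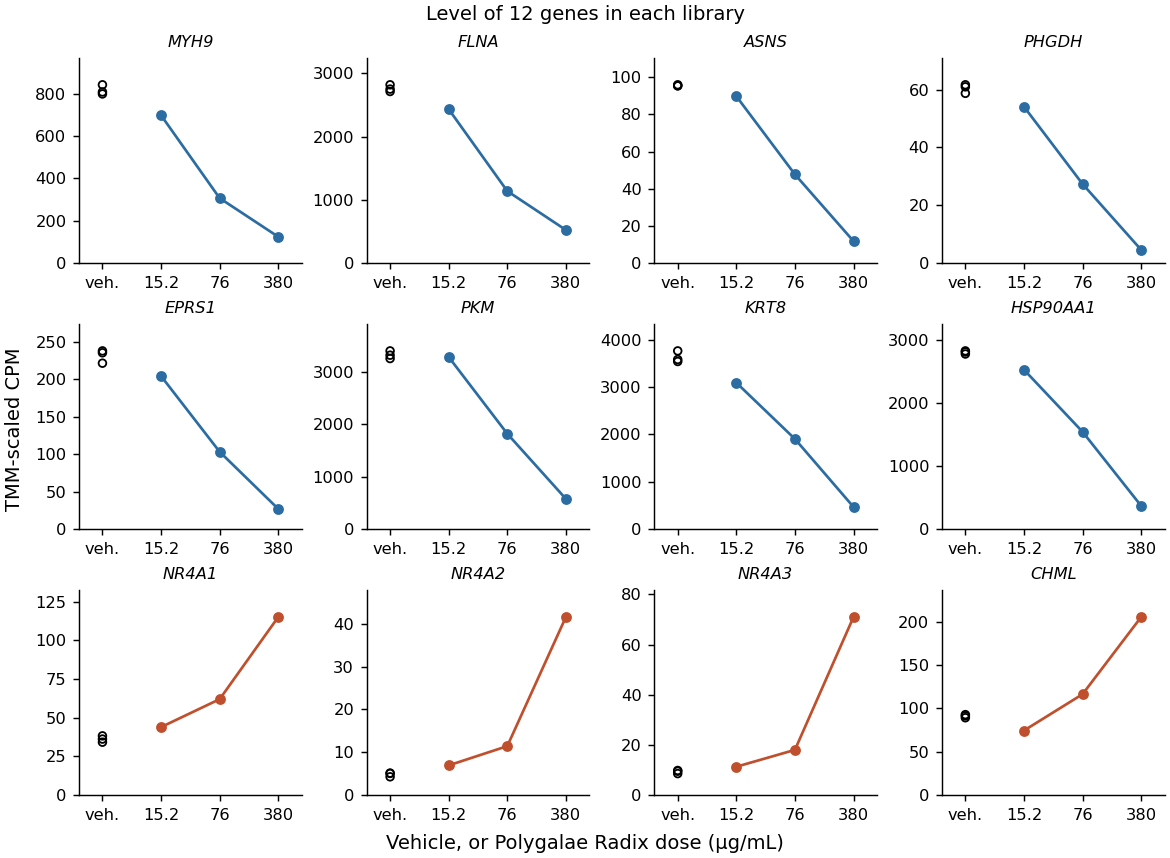
Level of 12 genes in TMM-scaled CPM in each vehicle library (open circles, 3 libraries) and in the single library of each Polygalae Radix dose (filled circles, 15.2, 76 and 380 µg/mL), each axis starting at 0. The 8 genes in blue were lower at each higher dose, whereas NR4A1, NR4A2, NR4A3 and CHML were higher at each.

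Energy metabolism showed a similar shift in several enzymes of glycolysis. Of 16 measured glycolysis genes, 5 were lower past 1.5-fold and 0 higher, 14 lay below 0, and the median was -0.46 (3 genes past 1.5-fold with total counts as the scale), beside -0.03 for the same genes with Aucklandiae Radix. PKM, pyruvate kinase, had 3258, 3404 and 3322 CPM in vehicle, 3288 at the low, 1821 at the medium and 576 at the high dose, a log2 ratio of -0.85. ENO1, enolase, had 2244 to 2299 CPM in vehicle, 1778 at the low and 1020 at the medium dose. Thus PKM was level between vehicle and the low dose, while ENO1 was already lower there. PGK1, LDHA and GPI, which act at other steps of glycolysis, stood at -0.68, -0.67 and -0.63. GAPDH, the common reference gene, had 6256 and 4511 CPM, a log2 ratio of -0.47. SLC2A3, a glucose transporter, and ENO2, the neuronal enolase, were the 2 members above 0, at 0.27 and 0.11.

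TKT, transketolase of the pentose phosphate path, had 1573 CPM at the low and 914.5 at the medium dose, a log2 ratio of -0.78. It belongs to the list of NRF2 targets, genes of the oxidative stress factor that is constitutively active in A549. Of its 27 measured members, 2 including TKT were lower past 1.5-fold and 0 higher, and the median was -0.09. Members on either side of 0, picked here after their values were seen, include the following. NQO1, a quinone reductase, stood at -0.56, AKR1B1 at -0.51 and AKR1B10 at -0.50, both aldo-keto reductases. In contrast FTH1 and FTL, the subunits of the iron store ferritin, stood at 0.26 and 0.22, TXNRD1, thioredoxin reductase, at 0.21, HMOX1, heme oxygenase, at 0.16 and GCLC, of glutathione synthesis, at 0.18. None of these members other than TKT reached 1.5-fold. With total counts as the scale the median of this list was 0.01, so its direction depends on the scaling.

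Mitochondrial enzymes coded in the nucleus followed in part. In the list of nuclear oxidative phosphorylation genes, 2 of 24 were lower past 1.5-fold, ATP5F1A of the ATP synthase (289 and 180 CPM) and UQCRC1 of the cytochrome bc1 complex (88.6 and 56.8 CPM), 0 were higher and the median was -0.19. Of these 2, 1 was past 1.5-fold with total counts as the scale. The 13 mitochondrially encoded genes had 0 past 1.5-fold and a median of -0.07. The list of PPAR targets and fatty acid oxidation had 1 of 10 lower past 1.5-fold, HADHA (247 and 136 CPM), with a median of -0.10 and a highest value of 0.33. Of 13 genes of fatty acid synthesis, ACLY, which makes cytosolic acetyl-CoA, was lower past 1.5-fold (664 and 429 CPM, but not with total counts as the scale), all 13 lay below 0 (9 with that scale) and the median was -0.21. FASN, fatty acid synthase, had 541.5 and 382 CPM. Cholesterol synthesis had 0 of 23 past 1.5-fold and a median of -0.12.

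Chaperones were lower rather than higher. In the list of heat shock proteins and chaperonins, 4 of 20 genes were lower past 1.5-fold and 0 higher, all 20 lay below 0, and the median was -0.38, with -0.02 for Aucklandiae Radix. With total counts as the scale 1 of 20, HSP90AA1, was lower past 1.5-fold and 16 lay below 0. HSP90AA1, the inducible cytosolic HSP90, had 2776 to 2825 CPM in vehicle, 2527 at the low, 1542 at the medium and 367 at the high dose, a log2 ratio of -0.71. HSPD1, the mitochondrial chaperonin HSP60, had 932 and 604 CPM. HSPA1A, an inducible HSP70 that shares reads with its near-identical copy HSPA1B and is therefore uncertain, had 263 and 174 CPM. HSPA4L, an HSP70 partner, had 32.8 and 21.5 CPM. The proteasome, which degrades damaged proteins, had 0 of 26 past 1.5-fold, with all 26 below 0 (21 with total counts as the scale) and a median of -0.18. Of the genes of the unfolded protein response of the endoplasmic reticulum, 0 of 17 were past 1.5-fold, with a median of -0.15.

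Keratins, which mark A549 as an epithelial line, were lower too. Of 13 measured keratin and junction genes, 5 were lower past 1.5-fold and 0 higher, all 13 lay below 0 and the median was -0.49, whereas with total counts as the scale 2 were lower past 1.5-fold and 11 lay below 0. KRT8 and KRT18, the paired keratins of simple epithelia, had 3096 and 2680 CPM at the low dose and 1906 and 1693 at the medium dose, with log2 ratios of -0.70 and -0.66. KRT19, a further simple keratin, had 24.4 and 12.3 CPM and the lowest ratio of the list, -0.94. KRT7 stood at -0.62 and DSP, desmoplakin of desmosomes, at -0.62, although replicates of DSP differed by up to 0.71 without the 2 libraries that stood apart. Aucklandiae Radix, medium against low dose, also had lower KRT19, at -0.38, and KRT8 and KRT18, at -0.23 each. There KRT7 stood at -0.0002 and DSP at -0.06, and the list median was -0.06. With Polygalae Radix, the sum of 12 markers of A549 was 16050 CPM at the low and 10470 at the medium dose. It was 18130 to 18560 in vehicle and 3155 at the high dose. The sum with Aucklandiae Radix was 16657, 14903 and 10946 CPM at the low, medium and high dose. In the Polygalae Radix libraries the 4 enzymes among these markers (ALDH1A1, AKR1B10, AKR1C1 and GPX2) made up a large share. The other 8, led by the keratins, summed to 7731 and 4875 CPM. Of these markers 1 was at 0 in both libraries, and EPCAM and MUC1 were low and differed little, at 4.72 and 4.14 and at 4.18 and 4.22 CPM. In bulk RNA, fewer cells of a type and less of these mRNAs per cell cannot be told apart.

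Markers of other cell types gave no matching gain. Fibroblast markers summed to 45.6 CPM at the low and 39.0 at the medium dose, leukocyte markers to 20.4 and 20.8 with PTPRC and CD3E at 0, endothelial markers to 0.445 and 0.573 with VWF, TEK, KDR and EMCN at 0, and hepatocyte markers to 25.3 and 24.3 with ALB, APOA2, TTR and G6PC1 at 0. Neural markers summed to 254.5 and 202 CPM with GAP43 and STMN2 at 0, and TUBB3, a tubulin, made up 133 and 98.5 CPM of them. In vehicle these sums were 42.1 to 43.2, 15.4 to 17.2, 0.425 to 0.520, 22.1 to 22.7 and 274 to 275 CPM in the same order.

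Secreted and detoxifying proteins of the airway followed the keratins. Among 4 measured mucin and secretory genes, 2 were lower past 1.5-fold (1 with total counts as the scale) and 0 higher, with a median of -0.58. MUC5B, a gel-forming mucin, had 64.1 to 87.0 CPM in vehicle, 125 at the low and 76.1 at the medium dose, and MUC5AC, the other gel-forming mucin of airways, had 268 to 315, 366 and 235 CPM. For MUC5B the low library was above all vehicle libraries and the medium library within their range. The ratios of both mucins, -0.71 and -0.64, were near the largest replicate difference without the 2 libraries that stood apart, 0.77 and 0.64. Of 14 aldehyde and steroid enzymes, ALDH3A1 and ALDH1A1 were lower past 1.5-fold and 0 were higher, with a median of -0.32, and with total counts as the scale ALDH3A1 alone was. ALDH3A1 had 864 to 917 CPM in vehicle, 812 at the low, 465 at the medium and 83.3 at the high dose. ALDH1A1, which oxidizes retinal, had 6429 to 6520, 5687, 3668 and 950 CPM in the same order. AHR targets had 4 measured genes, of which ALDH3A1 was the 1 past 1.5-fold, with a median of -0.24.

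Matrix, surface and immune genes contributed fewer members. Of 15 genes of TGF-beta response and matrix, FN1 (fibronectin, 1307 and 868 CPM) and LTBP2 (a latent TGF-beta binding protein, 33.7 and 21.9 CPM) were lower past 1.5-fold and 0 were higher, with all 15 below 0 and a median of -0.33. With total counts as the scale 0 of 15 were past 1.5-fold and 14 lay below 0. Of 14 YAP and TEAD targets, NT5E (the surface enzyme CD73, 37.9 and 22.9 CPM) and MYOF (myoferlin, 619 and 384 CPM) were lower past 1.5-fold, and the median was -0.12. The better known YAP targets CCN1 and CCN2 stood at -0.32 and -0.29. Of 5 interferon-stimulated genes, OAS3, which senses double-stranded RNA, was lower (98.1 and 59.8 CPM), and the median was -0.26. Of 15 complement and coagulation genes, 1 was lower past 1.5-fold (0 with total counts as the scale) and 0 were higher, with a median of -0.21. Among them PLAU, the urokinase that activates plasminogen, had 37.9 and 26.6 CPM, and C3, the central complement component, 45.8 and 33.0 CPM. Prostaglandin genes had 0 of 7 past 1.5-fold and a median of -0.25, with PLA2G4A, which frees arachidonic acid, at -0.54.

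Several large groups had few or no members past 1.5-fold. Of all measured genes 1.46% were lower past it, so lists of this size would often hold 0 by that share alone. A count of 0 or 1 therefore does not set a list apart, here or in the lists above. Cytosolic ribosomal proteins had 0 of 25 past 1.5-fold, a median of -0.002 and values between -0.23 and 0.21, and their median was -0.05 with Aucklandiae Radix. Genes of DNA replication had 1 of 31 lower past 1.5-fold, RRM1, a subunit of ribonucleotide reductase (174 and 113 CPM, but not with total counts as the scale), and a median of -0.03. Mitosis genes had 0 of 30 past 1.5-fold and a median of -0.16, with 25 below 0 (19 with total counts as the scale). Hypoxia, p53 and NF-kB lists had 0 past 1.5-fold, with medians of -0.01, -0.12 and -0.01, and 8 of 13, 11 of 16 and 4 of 7 measured genes below 0. Of the 46 lists examined, 44 had at least 3 measured genes, and in 37 of them the median lay below 0. Since the median of all genes moved from 0.0007 to 0.09 with total counts as the scale, list medians nearer to 0 than that carry no direction.

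**Figure D3:**
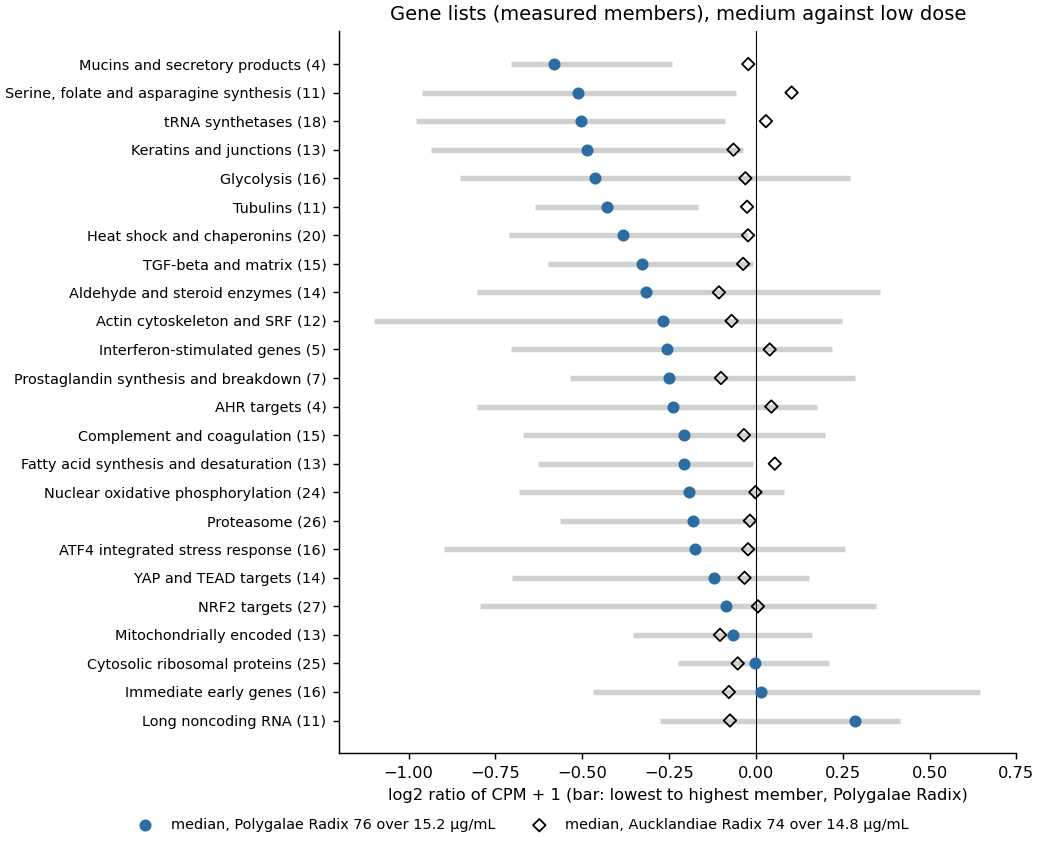
Median log2 ratio of CPM plus 1 for 24 gene lists (filled circles, medium over low dose of Polygalae Radix) with the lowest and highest measured member (grey bar), and the median of the same genes for Aucklandiae Radix at 74 over 14.8 µg/mL (open diamonds), with the number of measured genes in brackets. For Polygalae Radix medians run from -0.58 in the mucin list to 0.29 in the long noncoding RNA list, while those of Aucklandiae Radix for the lists shown lie between -0.11 and 0.10.

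The higher side was small, and part of it is uncertain. NR4A2 and NR4A3 are orphan nuclear receptors that act as immediate early genes. NR4A2 (chr2:156324432-156342348, minus strand) had 5.06, 4.27 and 5.14 CPM in vehicle, 6.94 at the low, 11.4 at the medium and 41.6 at the high dose, a log2 ratio of 0.65 with a counting interval of 0.43 to 1.01. NR4A3 (chr9:99821855-99866891, plus strand) had 9.53, 8.57 and 9.81 CPM in vehicle, 11.3 at the low, 18.02 at the medium and 71.0 at the high dose, a log2 ratio of 0.63. NR4A1, the third member of the family and named here after its values were seen, had 34.2 to 38.3, 44.0, 62.0 and 115 CPM in the same order and a log2 ratio of 0.49, short of 1.5-fold. All 3 receptors thus stood above vehicle at each dose and higher at each step. The low library of Aucklandiae Radix, in the same set, also stood above all vehicle libraries. It had 47.8 CPM of NR4A1, 5.93 of NR4A2 and 9.82 of NR4A3, the last by a very small margin. A step from vehicle to the low dose was thus not particular to Polygalae Radix. The medium and high libraries of Aucklandiae Radix had 38.6 and 17.9 CPM of NR4A1, 7.20 and 6.21 of NR4A2, and 8.84 and 3.47 of NR4A3. The largest replicate differences elsewhere were 0.55 for NR4A2, and 1.83 for NR4A3, or 0.40 without the 2 libraries that stood apart. NR4A2 passed the filter of 10 CPM only through the medium library, where it was higher. With a pseudocount of 5 CPM the log2 ratios of NR4A2 and NR4A3 were 0.46 and 0.50, short of 1.5-fold. With total counts as the scale they were 0.73 and 0.72.

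The list of immediate early genes leaves NR4A3 out. Of its 16 measured genes NR4A2 was the only one past 1.5-fold, and the list median was 0.01. JUN stood at -0.47, MYC at 0.08 and DUSP1, a phosphatase of MAP kinases, at 0.11. FOS and EGR1 were under 10 CPM in both libraries, with 6.32 and 5.37 CPM for FOS and 1.42 and 1.64 CPM for EGR1. The BMP and ID list had 0 of 8 past 1.5-fold and a median of 0.17, with ID3, an inhibitor of differentiation factors, at 0.40 (148 and 195 CPM) and ATOH8 at 0.47 (16.01 and 22.5 CPM).

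CHML, which helps attach lipid anchors to Rab proteins (chr1:241628853-241640254, minus strand), had 89.3 to 92.9 CPM in vehicle, 74.5 at the low, 116.5 at the medium and 206 at the high dose, a log2 ratio of 0.64. Its replicates elsewhere differed by up to 0.78 without the 2 libraries that stood apart, and 373 of its 7661 exon bases are shared with OPN3. UAP1L1, related to an enzyme of amino sugar activation, had 5.80 to 6.65 CPM in vehicle, 7.83 at the low and 12.7 at the medium dose, and LRFN1, a synaptic adhesion protein, had 17.6 to 18.7, 15.2 and 23.8 CPM. Both exceeded the largest replicate difference over all libraries, 0.45 and 0.33, with log2 ratios of 0.63 and 0.62. LRFN1 shares 686 of its 3381 exon bases with another locus on the same strand and is uncertain for that reason.

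Long noncoding RNA was the only list with a median above 0.2. Of 11 measured members 0 were past 1.5-fold, 9 lay above 0 and the median was 0.29, with 0.91 for the high against the low dose and -0.07 for Aucklandiae Radix. NEAT1, the scaffold of nuclear paraspeckles, had 287 to 309 CPM in vehicle, 527 at the low, 673 at the medium and 1238 at the high dose. MALAT1, which sits in nuclear speckles, had 589 to 596, 746, 947 and 1524 CPM. Aucklandiae Radix, in the same set, also stood above vehicle for both. Its low, medium and high libraries had 519, 509 and 758 CPM of NEAT1 and 947, 896 and 1214 CPM of MALAT1. The step from vehicle to the low dose was thus not particular to Polygalae Radix. SNHG1, SNHG12 and GAS5, hosts of small nucleolar RNAs, stood at 0.29, 0.42 and 0.29. H19 and MEG3 were the 2 members below 0, at -0.28 and -0.10. The SD of the difference in this list median between 2 libraries of a replicated group was 0.09, and single members such as NEAT1 differed by up to 0.73 between replicates without the 2 libraries that stood apart. In the same direction, 178 of 216 genes named ZNF and a number (84.4%) lay above 0, against 50.2% of all measured genes, with a median of 0.11 and 0 past 1.5-fold, a group chosen after its values were seen.

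The remaining higher genes are further loci that share sequence or exons with others. EIF3CL, a near-identical copy of EIF3C (a subunit of translation factor eIF3), had 3.69 CPM at the low and 37.4 at the medium dose, but 1.91 to 4.26 in vehicle and 18.98 and 0.0 in the low and medium libraries of Aucklandiae Radix, and replicates elsewhere differed by up to 5.16 on the log2 scale. Added together, EIF3C and EIF3CL gave 447 and 259 CPM, a log2 ratio of -0.78, with 445 to 460 in vehicle. PEDS1-UBE2V1 and DNAJC25-GNG10 are readthrough loci, and with their component genes added the log2 ratios were -0.10 and 0.04. PYURF shares 217 of 1361 exon bases with PIGY and stood at 28.5 CPM at the medium dose, within the 27.0 to 33.3 of vehicle, against 17.9 at the low dose. The other 2 had no symbol, and each lies over exons of a coding gene on the same strand. Among the lower genes, SLX1A with its copy SLX1B, and the FMC1-LUC7L2 readthrough with its component genes, gave log2 ratios of 0.13 and 0.05 when added.

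The lower genes had further features in common that played no part in choosing them. Their median coding length was 2517 bases against 1458 for all measured genes, and their median number of exons 19 against 10, while median transcript length was 3510 against 3256 bases. Coding lengths come from the GENCODE 29 transcript with the longest coding part. When the genes with a coding part were ranked by its length and split into 5 groups of similar size, 0.160, 0.322, 1.61, 1.83 and 3.43% were lower past 1.5-fold, from the shortest to the longest. The median log2 ratios of these groups were 0.002, 0.008, 0.0003, 0.006 and -0.02, so the difference lay in few genes of each group. By number of exons the shares were 0.503, 0.328, 1.14, 1.62 and 4.09%. By total transcript length they showed no steady order, with 0.675, 1.77, 1.61, 1.14 and 2.13%.

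Expression level was related to the shares as well. By level in vehicle per kb of transcript, the shares of genes lower past 1.5-fold were 0.831, 0.883, 0.624, 1.19 and 3.79% from the lowest to the highest group. Within the top group by level, the shares were again larger with coding length, at 0 of 374, 0 of 372, 3 of 374, 23 of 372 and 45 of 373 genes. In Aucklandiae Radix the longest of these 5 groups had 0 genes lower past 1.5-fold. Since only 9 of 9613 genes (0.0936%) were lower there in all, this 0 is near that share and says little by itself. The median of the group was 0.03 in Aucklandiae Radix against -0.18 in Polygalae Radix. Within the top group by vehicle CPM not divided by length, the shares were also larger with coding length, from 0.0 to 8.85%. The medians there had no steady order, at -0.05, -0.07, -0.11, -0.11 and -0.07. The 141 genes held 6.09% of scaled counts at the low and 3.66% at the medium dose. Genes differ in counts and so in precision, and their part in these shares was not tested.

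**Figure D4:**
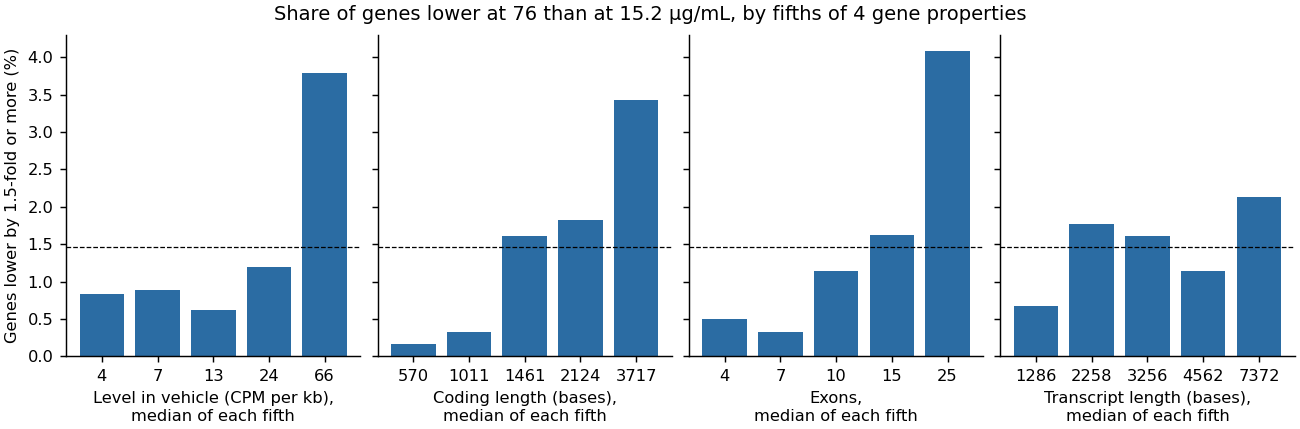
Share of genes (%) lower past 1.5-fold at the medium than at the low dose, in 5 groups of similar size ranked by level in vehicle (CPM per kb of transcript), coding length, number of exons and transcript length, with each group's median under its bar. The dashed line marks the share over all measured genes, 1.46%; the genes with the longest coding parts and the most exons reach 3.43% and 4.09%, and transcript length shows no steady order.

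The other libraries of the extract and the vehicle libraries place these genes along the doses. Of the 141 lower genes, 135 (95.7%) were within 1.5-fold of the vehicle mean at the low dose, near the 97.9% of all measured genes. At the medium dose 137 (97.2%) were below all 3 vehicle libraries, against 49.3% of all measured genes. At the high dose 138 (97.9%) were lower still than at the medium dose, against 59.8% of all measured genes. Of the 11 higher genes, 8 were above all vehicle libraries at the medium dose and 7 were higher again at the high dose. Since the medium library takes part in both steps, these orders are a description. Against the low dose, the high dose had 2412 of 9960 genes lower (24.2%) and 1177 higher (11.8%) past 1.5-fold, a comparison that shares the low library. Against the vehicle mean, the low dose had 123 lower (1.27%) and 88 higher (0.911%) genes, and the medium dose 449 lower (4.63%) and 128 higher (1.32%), across sets.

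Apart from the pairs that hold a library that stood apart, the other extracts had fewer genes lower at the medium than at the low dose. Aucklandiae Radix, the closest match with 1 library per dose in the same set, had 9 genes lower (0.0936%) and 6 higher (0.0624%) past 1.5-fold between 74 and 14.8 µg/mL. Of the 141 genes lower in Polygalae Radix, 0 were lower and 1 was higher past 1.5-fold there, near those shares, and their median log2 ratio was 0.02. Over the 16 pairs of a medium and a low library with the same replicate number in other extracts, without the 2 pairs that hold a library that stood apart, 3 to 48 genes were lower and 2 to 130 higher. The 48 and the 130 came from replicate 1 of Longan Arillus, whose replicate 2 gave 10 and 5; without Longan Arillus the ranges over 14 pairs were 3 to 21 and 2 to 46. The 141 lower genes of Polygalae Radix thus lay outside these pairs and its 11 higher genes inside them. The 2 pairs with a library that stood apart gave 1850 and 2705 lower genes. Between libraries of 1 group, 41 pairs outside Longan Arillus and the 2 libraries that stood apart had 3 to 47 genes past 1.5-fold in either direction, and 7 pairs within Longan Arillus had 13 to 358.

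**Figure D5:**
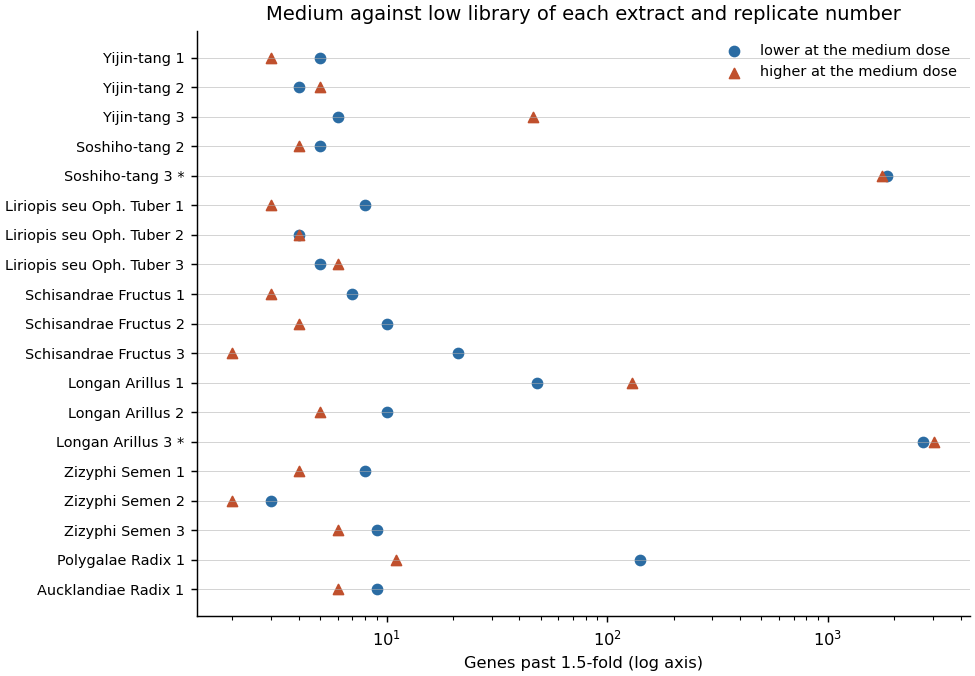
Number of genes past 1.5-fold (log axis) between the medium and the low library of each extract and replicate number, lower (blue circles) or higher (red triangles) at the medium dose. An asterisk marks a pair that holds a library that stood apart; Polygalae Radix has 141 lower and 11 higher genes, whereas the other pairs without an asterisk have at most 48 lower.

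The fold limit cuts through a continuous range. Just inside it on the lower side were TUBB2A, HSPA4L and IL11, a cytokine, each at -0.59, and just outside were VIM, the filament protein vimentin, at -0.58 (987 and 658 CPM), AP1B1, an adaptor of clathrin coats, at -0.58 and FBN2, a fibrillin of the matrix, at -0.58. On the higher side the first genes outside were PLD6 at 0.57, AMDHD2 at 0.56 and BRI3 at 0.56. A count past 1.5-fold is therefore a convention, and the values of named genes carry more than their side of it. Between the medium and low doses of Aucklandiae Radix, IL11 was lower too, at -0.54. There TUBB2A, HSPA4L, VIM, AP1B1 and FBN2 lay between -0.13 and 0.10.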

How the data were processed

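RNA was sequenced from A549 cells in 60 libraries of 25 groups, and the comparison used the medium and low library of Polygalae Radix. Values are expected counts, deposited as 1 gene table with no scaling for depth or length. Per the submitters' processing notes, the tools were RSEM 1.3.3, STAR 2.7.3a, Trim Galore 0.6.5 and FastQC 0.11.9, with build hg38 (GRCh38). Annotation release and strand setting were not given in the sources used here, so overlapping, antisense and near-identical genes are uncertain. Of the deposited expected counts, 10.485% were not whole.

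Expected counts were rounded. TMM factors over 60 libraries came from edgeR 4.0.16, and size factors for an alternative from DESeq2 1.42.0 (R 4.3.3). Python 3.11.15, pandas 2.3.3, numpy 2.4.6 and scipy 1.17.1 did the rest. Genes with 10 CPM or more in either library were compared by the log2 ratio of CPM plus 1, with limits of 1.5-fold and 2-fold and no test. The calculation was tested on simulated data. Counting intervals are 95% Clopper-Pearson intervals. Symbols were found for 9530 of the 9638 measured genes. Coordinates, lengths and exons come from GENCODE 29 (GRCh38), which held 9624 of them, and promoters from RefSeq.

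Named genes were the 15 highest and 15 lowest by ratio among those with a symbol past 1.5-fold, up to 5 members of each list with 2 or more members past 1.5-fold in 1 direction or a median beyond 0.2, and the 3 genes on each side of the fold limit. Other genes named were chosen after their values were seen. The members and lists were chosen with earlier results of these data known. Alternatives varied scaling, filter, pseudocount and the libraries behind the replicate spread. Results of some genes that this rule names are not given.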

Additional observations from a re-analysis of the deposited data

How the results depend on the processing

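No paired analysis was possible because the medium and low doses of Polygalae Radix have 1 library each. With 1 library a side, nothing separates the dose from the library, and genes of few counts are limited by depth. Under total counts, 65 genes were lower and 30 higher past 1.5-fold, and without mitochondrially encoded genes in the total 64 and 39. Past 2-fold, both left 2 lower. With a filter of 1 CPM, 235 were lower and 73 higher (21 and 14 past 2-fold), and with no filter 263 and 96 (21 and 14). With a filter of 30 CPM, and with a pseudocount of 5 CPM, 2 were higher. Without the 2 libraries that stood apart, 124 lower and 7 higher genes past 1.5-fold exceeded the replicate spread, beside 1896 of all measured genes at any fold. Under total counts the list medians were -0.42 for serine, folate and asparagine synthesis, -0.41 for tRNA synthetases, -0.37 for glycolysis, -0.34 for tubulins, -0.29 for heat shock, -0.22 for aldehyde and steroid enzymes, -0.18 for actin and SRF, -0.15 for AHR targets, -0.12 for complement and for fatty acid synthesis, -0.084 for ATF4 and 0.0058 for NRF2 targets. The shift of all genes by 0.09 is part of each. In all, total counts moved the ratios of 70 of 112 named genes outside their counting intervals, which cover counting error only. They moved 31 of 44 list medians by more than the replicate SD of the median. Of 54 named lower genes 32 stayed past 1.5-fold, with CARS1, QARS1, PSAT1, ACLY and FN1 among those that did not. With DESeq2 size factors none of the 112 ratios left its counting interval. None of the 44 medians moved by more than its replicate SD with these factors. The low dose against vehicle had 114 to 134 genes lower and 88 to 94 higher when each vehicle library was left out.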
